A study of Mus musculus with 20 samples.

Results

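The 9 genes described here, Mbp, Mobp, Mog, Mag, Cnp, Mal, Cldn11, Aspa and Apod, are expressed in myelinating oligodendrocytes, though Apod is less specific. They were found by matching their symbols to the gene identifiers of the count table, where they were 9 of 55536 genes, and all 9 were among the 16419 genes with enough reads to be tested. RNA was sequenced from the hippocampus of 12-week-old male mice labelled C57BL/6J, 7 days after an intraperitoneal injection. The 4 groups, each of 5 libraries, were Fkbp5 knockout (KO) mice given lipopolysaccharide at 3 mg/kg (LPS, the endotoxin of Gram-negative bacteria), KO mice given saline, wild-type (WT) mice given LPS, and WT mice given saline. The KO is labelled as a whole-animal genotype, and how the allele was made is not given in the sources used here. Nothing in the labels states that the 5 libraries of a group came from separate animals, so the p-values measure the spread between these libraries.

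Myelin is the stack of membrane that oligodendrocytes wrap around axons. Its compaction rests on MBP on the inner membrane face, its outermost layer carries MOG, and its innermost layer carries MAG, which contacts the axon. In the hippocampus, myelin is concentrated in the fibre tracts that border it, the alveus and fimbria, with thinner myelin within the layers. The targeted gene, Fkbp5, encodes a partner of the chaperone HSP90 that dampens glucocorticoid receptor signalling.

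Libraries held 16652992 to 27230202 counts. Fkbp5 itself had 25 to 36 CPM (reads scaled by library size) in the 10 KO libraries, against 56.6 to 73.3 CPM in the 10 WT libraries, so the levels followed the labels without overlap. The libraries fell into the same sets in every group. Replicates 1 and 2 (8 libraries) had 4.66% to 5.68% of counts on mitochondrial genes and 23650 to 25237 genes detected, while replicates 3 to 5 (12 libraries) had 8.41% to 11.4% and 21064 to 22247 genes. Within replicates 3 to 5, the mitochondrial share was 8.41% to 9.71% in 6 KO libraries and 9.41% to 11.4% in 6 WT libraries, with 4 KO libraries below every WT library. Within replicates 1 and 2, it was 4.66% to 5.6% in 4 KO libraries and 4.9% to 5.68% in 4 WT libraries. There, 3 KO libraries lay below every WT library. The labels do not say what separates the sets. All 9 listed hippocampus markers were detected in all libraries, and none of them was at 0 in any. Among listed genes of peripheral myelin, Pmp2 had 1 count over all 20 libraries, while Prx, Egfl8 and Drp2 were above 0 in every library, with 663, 238 and 21299 counts in all.

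Among the proteins of the compact sheath, Mbp (ENSMUSG00000041607, chromosome 18, 82475146 to 82585637, plus strand, GRCm38) encodes myelin basic protein, and Mobp (ENSMUSG00000032517, chromosome 9, 120149707 to 120181484, plus strand) encodes another basic protein of compact myelin. Mal (ENSMUSG00000027375, chromosome 2, 127633226 to 127656695, minus strand) encodes a proteolipid of lipid-rich myelin membrane. Cldn11 (ENSMUSG00000037625, chromosome 3, 31149920 to 31164324, plus strand) encodes the claudin of the tight junctions between the layers of the sheath. The surface and channel proteins were Mog (ENSMUSG00000076439, chromosome 17, 37010743 to 37023398, minus strand), an immunoglobulin-like protein of the outer surface, and Mag (ENSMUSG00000036634, chromosome 7, 30899176 to 30914873, minus strand), the myelin-associated glycoprotein. Mog lies 8.49 Mb from Fkbp5 on the same chromosome. Cnp (ENSMUSG00000006782, chromosome 11, 100574904 to 100591729, plus strand) encodes a phosphodiesterase that keeps cytoplasmic channels in the sheath open. Aspa (ENSMUSG00000020774, chromosome 11, 73304992 to 73329596, minus strand) encodes aspartoacylase, which frees acetate from N-acetylaspartate. Apod (ENSMUSG00000022548, chromosome 16, 31296192 to 31314808, minus strand) encodes apolipoprotein D, a lipid carrier made by oligodendrocytes and by other glia and fibroblasts. Of Cnp's exon bases, 4.23% overlap Dnajc7 on the opposite strand, and the strand setting of the counting is not given in the sources used here. Another 1.15% of Mobp's exon bases are shared with Gm38642 on the same strand.

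Per kilobase of exon, Mbp stood highest and Aspa lowest. In WT saline hippocampus, Mbp had 195 ± 45.9 CPM per kb (mean ± SD, n = 5), Cnp 75.5 ± 11.2, Cldn11 63.8 ± 7.82, Mal 59.2 ± 10.3 and Mobp 55.5 ± 26.2 CPM per kb. Below them came Apod with 38.6 ± 8.85, Mag with 30.7 ± 1.86, Mog with 27.8 ± 2.45 and Aspa with 1.5 ± 0.218 CPM per kb. Between neighbours in this order, the 5 libraries did not overlap between Mbp and Cnp or between Mog and Aspa, and overlapped at every other step. The least expressed gene in any library still had 110 reads, and the most abundant had 66527.

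The promoters show what the genes do and do not share in sequence. RefSeq (GRCm38.p6) promoter windows of 300 bases, 250 before and 50 after the start, were matched for 8 of the 9 genes. The 250 bases before the start are printed for Mobp, Mog, Mag and Cnp, which hold motifs of the oligodendrocyte regulators SOX10 and MYRF, and for Mal and Cldn11, which had the smallest p-values between genotypes. Capitals mark ACAAAG or ACAATG (the SOX core, either strand) and CTGGCAC or CTGGTAC (the MYRF core, either strand); no marked matches of the SOX and MYRF cores overlapped each other. The regions are chr9:120149492-120149741 (plus strand) for Mobp, chr17:37023399-37023648 (minus) for Mog, chr7:30914864-30915113 (minus) for Mag, chr11:100574689-100574938 (plus) for Cnp, chr2:127656696-127656945 (minus) for Mal and chr3:31149670-31149919 (plus) for Cldn11, each written 5′ to 3′ on the gene's strand.
Mobp: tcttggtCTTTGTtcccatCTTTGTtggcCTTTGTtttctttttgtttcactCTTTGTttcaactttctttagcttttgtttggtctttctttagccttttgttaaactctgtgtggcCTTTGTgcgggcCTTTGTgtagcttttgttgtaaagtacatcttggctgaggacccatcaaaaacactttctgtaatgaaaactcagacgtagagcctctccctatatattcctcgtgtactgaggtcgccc
Mog: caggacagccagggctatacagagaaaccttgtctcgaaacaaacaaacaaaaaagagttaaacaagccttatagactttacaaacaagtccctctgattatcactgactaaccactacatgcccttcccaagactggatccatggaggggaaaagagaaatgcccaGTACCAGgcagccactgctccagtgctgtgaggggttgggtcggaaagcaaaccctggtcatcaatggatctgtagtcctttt
Mag: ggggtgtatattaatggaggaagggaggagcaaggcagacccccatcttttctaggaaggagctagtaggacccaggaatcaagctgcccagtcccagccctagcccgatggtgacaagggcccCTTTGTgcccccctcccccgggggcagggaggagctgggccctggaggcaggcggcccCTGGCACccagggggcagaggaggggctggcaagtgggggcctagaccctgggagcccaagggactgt
Cnp: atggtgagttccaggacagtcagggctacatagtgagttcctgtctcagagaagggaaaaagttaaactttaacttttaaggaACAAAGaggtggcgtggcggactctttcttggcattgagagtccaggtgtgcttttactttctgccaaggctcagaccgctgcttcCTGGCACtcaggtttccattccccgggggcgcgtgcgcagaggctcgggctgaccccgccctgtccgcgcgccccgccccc
Mal: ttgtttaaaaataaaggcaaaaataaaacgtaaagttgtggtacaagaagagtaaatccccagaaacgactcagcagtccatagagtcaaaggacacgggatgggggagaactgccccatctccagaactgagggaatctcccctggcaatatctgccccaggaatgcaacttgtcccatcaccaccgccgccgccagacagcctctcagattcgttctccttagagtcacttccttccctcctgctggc
Cldn11: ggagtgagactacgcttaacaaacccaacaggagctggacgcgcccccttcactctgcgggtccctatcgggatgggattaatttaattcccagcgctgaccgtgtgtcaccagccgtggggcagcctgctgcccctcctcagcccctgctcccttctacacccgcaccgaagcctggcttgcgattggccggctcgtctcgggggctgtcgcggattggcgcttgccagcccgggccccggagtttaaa

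The Mobp promoter held 6 SOX cores, all in the CTTTGT orientation, and was the only 1 of 32851 promoter windows with as many. Mag and Cnp each held 1 SOX core, as did 28.6% of all windows at least once, and with Apod 4 of the 8 windows held it. The MYRF core began 83 bases before the start of Mog, 68 before that of Mag and 81 before that of Cnp, so 3 of 8 windows held it, against 7.1% of all. The E-box CAGCTG, a core of bHLH factors such as OLIG2, was in 2 of 8 windows (Aspa and Apod), against 16.3% of all. Neither the SOX nor the MYRF core was in the windows of Mal and Cldn11. GC content ran from 37.3% (Apod) to 66.3% (Cldn11) in the 8 windows, with 43.3% for Mobp, against a median of 52.7% over all windows. Mag has 3 RefSeq starts, and only the 1 nearest the annotated gene start was used. These matches describe letters in the windows and are not evidence of binding.

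Most myelin transcripts had lower estimates in KO than in WT, and none passed the threshold when all 20 libraries were fitted without further terms. Averaged over both treatments, 8 of 9 genes lay below 0 on the log2 scale (KO over WT), and Apod alone lay above 0, at 0.05. The median of the 9 was -0.28, against -0.01 over all 16419 genes tested. The 9 genes varied together across libraries (median pairwise r 0.712 within groups and sets). Counts of their directions, here and below, are thus not counts of 9 separate observations. The 9 were also chosen with earlier results of these data known. None of the 9 passed the threshold in edgeR's quasi-likelihood test, a p under 0.05 after Benjamini-Hochberg adjustment over the 16419 genes. At an unadjusted p under 0.05 there were 5, all lower in KO (Cldn11, Mal, Mog, Mag and Cnp). Of all genes tested, 0.439% passed the adjusted threshold in either direction, and 2.45% were lower in KO at an unadjusted p under 0.05. In bulk tissue, fewer oligodendrocytes and less RNA per oligodendrocyte cannot be told apart. Within both library sets, most KO libraries also had a lower mitochondrial share than any WT library. The part of this share in the result was not tested.

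Mal and Cldn11 stood lowest in p. Mal had 95.9 to 158 CPM in the 10 KO libraries (median 128), against 136 to 321 CPM in the 10 WT libraries (median 173). The ranges overlapped between 136 and 158 CPM. The mean was 129 ± 18.4 CPM in KO and 184 ± 52.6 CPM in WT (SD, n = 10 each), which is -0.50 ± 0.13 on the log2 scale (± SE; edgeR adjusted p = 0.115). Cldn11 had 83.4 to 123 CPM in KO (median 97.9), against 96.3 to 177 CPM in WT (median 126). Its means were 99.6 ± 13.5 CPM in KO and 130 ± 21.9 CPM in WT (n = 10 each), which is -0.38 ± 0.09 on the log2 scale (edgeR adjusted p = 0.0938), and its ranges also overlapped.

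Whether Mal and Cldn11 were called depended on the fit. With the set as a term, Cldn11 was at -0.38 (edgeR adjusted p = 0.0329) and Mal at -0.50 (0.0461), while 0.42% of all genes were called lower in KO by that fit. With the replicate number as a block, Cldn11 was called (edgeR adjusted p = 0.012) and Mal was not (0.0518), with 0.487% of all genes called lower. DESeq2 called both (adjusted p = 0.012 for Cldn11 and 0.0163 for Mal), and limma-voom called both (0.0162 and 0.0175) as well as Cnp (0.0287). DESeq2 called 0.317% of all genes lower in KO and limma-voom 1.29%. Within replicates 1 and 2 alone, Cldn11 had -0.43 and Mal -0.57, with no gene of the 9 called (smallest edgeR adjusted p = 0.757) and 0.00564% of all genes called lower. Within replicates 3 to 5 alone, Cldn11 had -0.35 (edgeR adjusted p = 0.0808) and Mal -0.43 (0.0944), and of the 9 only Cnp was called, at -0.27 (0.0326), where 3.38% of all genes were called lower. The direction was thus lower in KO in both library sets, and the adjusted p moved across the threshold with the fit used. Without KO saline replicate 5, Cldn11 was called in the fit without further terms (edgeR adjusted p = 0.0332), and so it was without WT saline replicate 1 (0.046). Those fits called 0.119% and 0.145% of all genes lower.

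The surface proteins and Cnp followed at smaller differences. Mog had 31.7 to 52.6 CPM in KO (median 36), against 43.1 to 62.3 CPM in WT (median 48.0), giving -0.33 ± 0.10 on the log2 scale (edgeR adjusted p = 0.354). Mag averaged 111 ± 19.8 CPM in KO and 135 ± 18.7 CPM in WT (n = 10 each), with -0.28 ± 0.10 (edgeR adjusted p = 0.6). Cnp averaged 244 ± 28 CPM in KO and 294 ± 53.9 CPM in WT (n = 10 each), with -0.27 ± 0.10 (edgeR adjusted p = 0.699). For all 3 genes the KO and WT ranges overlapped.

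The basic proteins and the 2 lower or less specific genes differed by less than their spread. Mbp averaged 1608 ± 344 CPM in KO and 1805 ± 430 CPM in WT, with a log2 fold change of -0.17 ± 0.14, and Mobp averaged 348 ± 113 CPM in KO and 447 ± 242 CPM in WT, with -0.35 ± 0.26. Mobp had -0.56 within replicates 1 and 2 and -0.05 within replicates 3 to 5. Aspa had 9.02 ± 1.77 CPM in KO and 10.3 ± 2.23 CPM in WT, with -0.17 ± 0.12. Apod had 122 ± 28.8 CPM in KO and 120 ± 30.2 CPM in WT. Its log2 fold change of 0.05 ± 0.14 became -0.08 within replicates 1 and 2.

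**Figure D1:**
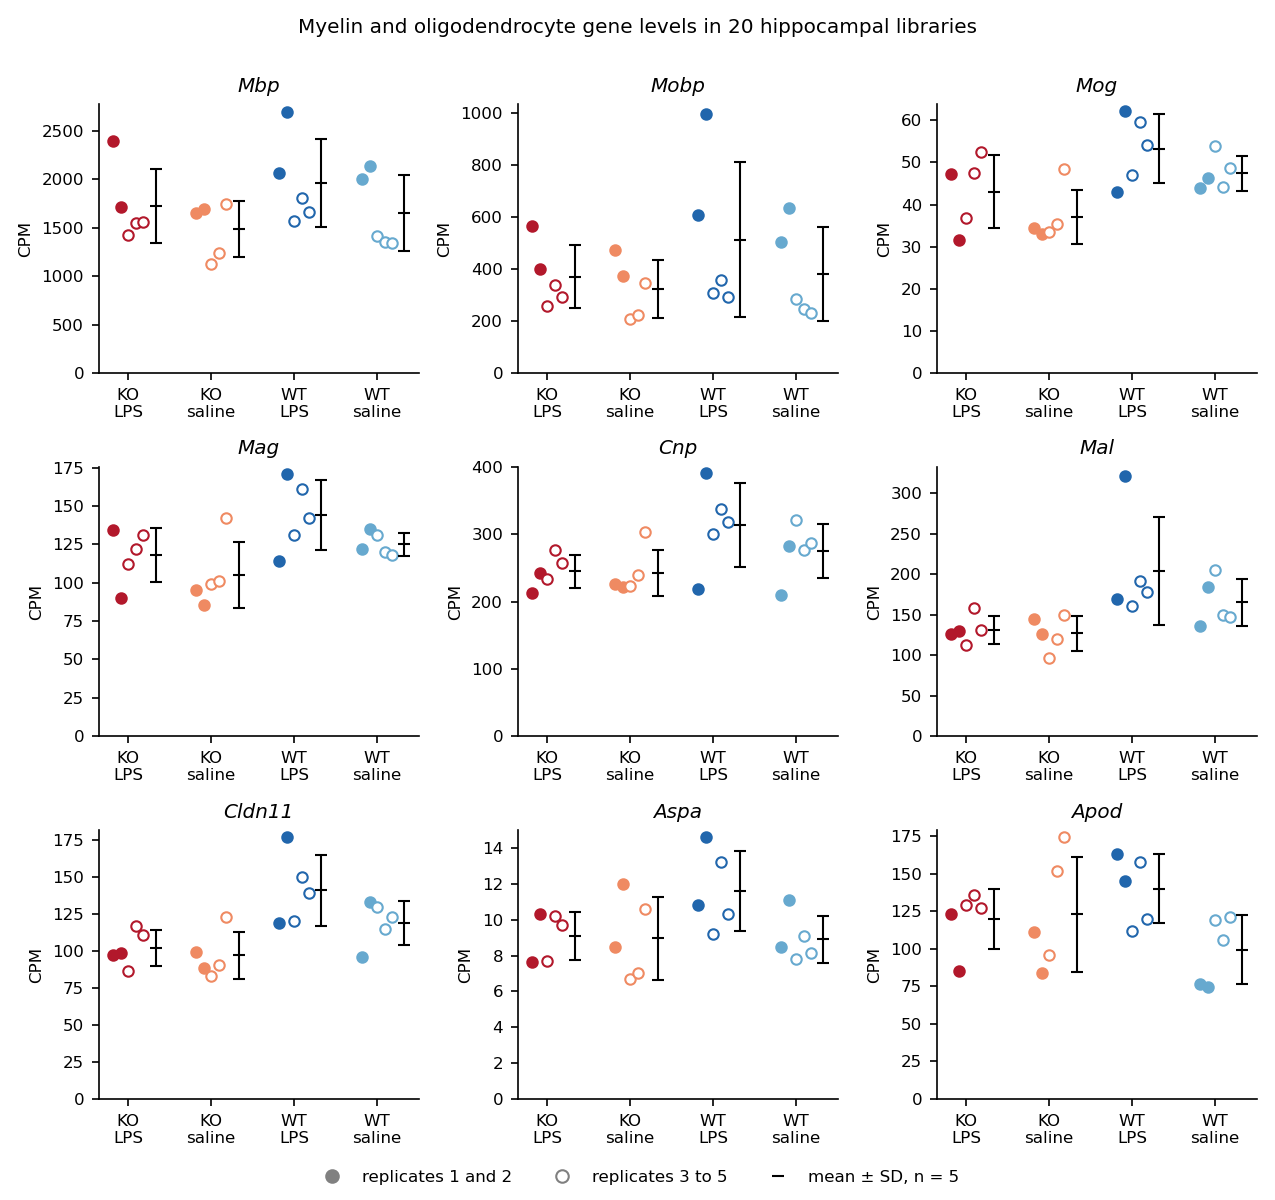
Level of each of the 9 genes in CPM (y axis, from 0) in every library of the 4 groups (x axis), with filled points for replicates 1 and 2, open points for replicates 3 to 5, and a bar for the mean ± SD of the 5 libraries. After LPS, Mal and Cldn11 are lower in all 5 KO libraries than in any WT library, and Mobp is higher in every filled point than in any open point.

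**Figure D2:**
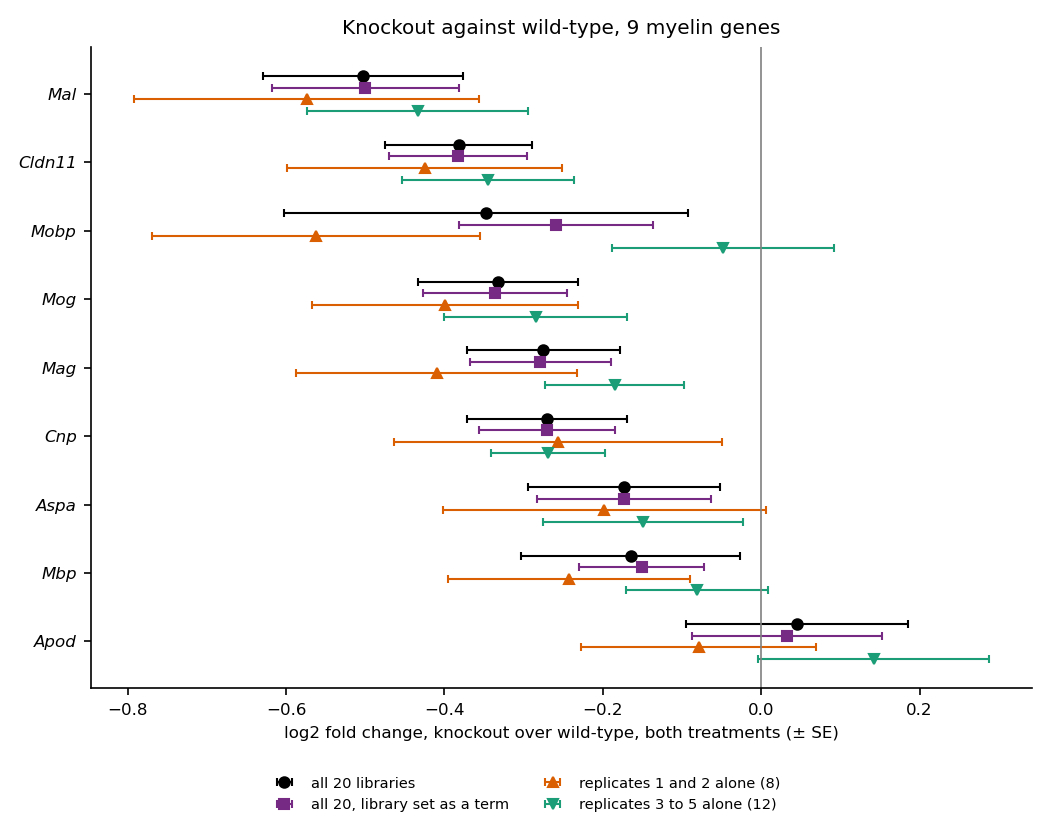
Log2 fold change of KO over WT across both treatments (x axis, ± SE) for the 9 genes (y axis), fitted on all 20 libraries, with the library set as a term, and in each library set alone. Mal, at -0.50, and Cldn11, at -0.38, lie left of 0 in all 4 fits, while Mobp moves between -0.56 and -0.05 and Apod crosses 0.

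Split by treatment, the estimates lay below 0 for most genes after LPS and after saline. After LPS, all 9 genes lay below 0 (median -0.35), none passed the adjusted threshold, 5 had an unadjusted p under 0.05, and 1.55% of all genes were lower in KO at that level while 0.146% were called in either direction. Mal had 126, 130, 112, 158 and 131 CPM in KO LPS replicates 1 to 5, against 169, 321, 161, 192 and 178 CPM in WT LPS replicates 1 to 5. All 5 KO values lay below all 5 WT values, with WT LPS replicate 2 far above the rest. The log2 fold change was -0.64 ± 0.18 (edgeR adjusted p = 0.397), and -0.41 without WT LPS replicate 2.

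Cldn11 separated in the same way after LPS. It had 97.3, 98.4, 86.7, 117 and 111 CPM in KO LPS replicates 1 to 5, against 119, 177, 120, 150 and 139 CPM in WT LPS replicates 1 to 5. The groups did not overlap, although the highest KO value and the lowest WT value were 117 and 119 CPM. The log2 fold change was -0.47 ± 0.13 (edgeR adjusted p = 0.418). Lower in all KO libraries than in any WT library after LPS were 0.372% of all genes tested. The other 7 genes overlapped between the genotypes, with log2 fold changes of -0.47 (Mobp) to -0.18 (Mbp).

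After saline, 7 of 9 genes lay below 0 (median -0.23), and Cldn11 (-0.30 ± 0.13) and Mog (-0.36 ± 0.14) had an unadjusted p under 0.05. Of all genes, 1.3% were lower in KO at that level and 0.171% passed the adjusted threshold. Mog had 34.4, 33.1, 33.6, 35.3 and 48.4 CPM in KO saline replicates 1 to 5, against 44.0, 46.2, 54.0, 44.1 and 48.8 CPM in WT saline replicates 1 to 5. In 4 of 5 KO libraries Mog was below every WT library, and KO saline replicate 5 fell within the WT range. Apod lay on the other side of 0 after saline, at 0.31 ± 0.20, and Aspa was at 0.01 ± 0.17.

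Between LPS and saline, no member passed the threshold in either genotype, and most estimates lay above 0. In WT, all 9 genes lay above 0 (median 0.25 against -0.02 over all genes), none was called (0.0% of all genes were), and 2 genes had an unadjusted p under 0.05, as did 1.49% of all genes on the higher side. Apod had 163, 145, 112, 158 and 120 CPM in WT LPS replicates 1 to 5, against 76.2, 74.4, 119, 106 and 121 CPM in WT saline replicates 1 to 5. The LPS values of replicates 1 and 2 lay above all saline values, and 2 of the other 3 lay within the saline range. Its log2 fold change was 0.49 ± 0.20 (unadjusted p = 0.023, edgeR adjusted p = 1), with 1.05 within replicates 1 and 2 alone and 0.18 within replicates 3 to 5 alone. Aspa followed at 0.38 ± 0.17 (unadjusted p = 0.0369). It had 10.8, 14.6, 9.21, 13.2 and 10.3 CPM after LPS and 8.45, 11.1, 7.78, 9.11 and 8.13 CPM after saline, in replicates 1 to 5 of WT, and the ranges overlapped.

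The remaining 7 genes had log2 fold changes of 0.17 (Mog) to 0.43 (Mobp) in WT. WT LPS replicate 2 was the highest library of its group for 8 of the 9 genes, all but Apod, and without it the median of the 9 fell to 0.11 and remained above 0 for all 9. In the same comparison, meningeal fibroblast markers were above 0 for 11 of 12 genes (median 0.48) and thalamus markers for 7 of 9 tested (median 0.30). Summed thalamus markers had 132 to 223 CPM after LPS in WT (median 166), against 115 to 172 CPM after saline (median 160). Summed meningeal markers had 87.6 to 211 CPM after LPS (median 120), against 69.3 to 138 CPM after saline (median 138). The median of the meningeal sum was thus lower after LPS. Without 3 thalamus-high libraries (WT LPS replicates 1 and 4, KO LPS replicate 1), the median of the 9 in WT was 0.29. These libraries were not the 3 highest by summed thalamus markers, which reached 195 CPM in KO saline and 183 CPM in KO LPS. The measure by which they were picked is not given here. The part of thalamus and meningeal markers in the result was otherwise not tested.

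In KO, 8 of 9 genes lay above 0 after LPS, with a median of 0.07 and none at an unadjusted p under 0.05; 0.00609% of all genes were called. Cnp was at 0.01 ± 0.14 and Apod at -0.04 ± 0.20. Averaged over genotypes, all 9 were above 0 (median 0.20), none was called or had an unadjusted p under 0.05, and of all genes 0.0426% were called and 1.97% were higher at an unadjusted p under 0.05. With the library set as a term, none was called either, with a smallest edgeR adjusted p of 0.647. The difference of the LPS effects between genotypes was tested as an interaction, in which no member and 0.0% of all genes were called. Apod had the smallest p there (-0.53 ± 0.28, unadjusted p = 0.0764), and 8 of 9 genes lay below 0.

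Over all 20 libraries, the widest difference of a single gene, that of Mobp, lay between the library sets. Cldn11, Mal, Mog, Mag and Cnp differed less between the sets than between the genotypes. Comparing replicates 1 and 2 with replicates 3 to 5, with the group as a term, 64.3% of all genes passed the threshold, and so did 3 of the 9. Mobp had 374 to 995 CPM in replicates 1 and 2 (median 536), against 206 to 358 CPM in replicates 3 to 5 (median 289). The sets did not overlap, which was the case for 10.9% of all genes on the higher side. Its log2 fold change was 0.98 ± 0.12 (edgeR adjusted p = 8.99e-07). Mbp had 1650 to 2697 CPM in replicates 1 and 2 (median 2034), against 1122 to 1810 CPM in replicates 3 to 5 (median 1486), with 0.46 ± 0.08 (edgeR adjusted p = 3.95e-05). Apod ran the other way, with 74.4 to 163 CPM in replicates 1 and 2 and 95.8 to 174 CPM in replicates 3 to 5. Its log2 fold change was -0.30 ± 0.12 (edgeR adjusted p = 0.0405). That call ended under limma-voom (adjusted p = 0.0628), under a stricter filter on low counts (edgeR adjusted p = 0.0553) and without a group term (0.112). It also ended when KO LPS replicate 2, KO saline replicate 1, 2, 4 or 5, WT LPS replicate 4, or WT saline replicate 1, 2, 3 or 5 was left out, with edgeR adjusted p of 0.0509 to 0.0948.

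The other 6 genes were not called between the sets, with log2 fold changes of -0.17 (Cnp) to 0.19 (Aspa). Cnp was called without WT LPS replicate 2, at -0.26 (edgeR adjusted p = 0.00492), and with no filter on low counts (0.0343), where 63.1% and 34.4% of all genes were called. Aspa was called at 0.31 without the 3 thalamus-high libraries (edgeR adjusted p = 0.0227), where 59.5% of all genes were called. Myelin genes thus did not move as a block: Mobp exceeded Mog by 3.70 on the log2 CPM scale in replicates 1 and 2 and by 2.59 in replicates 3 to 5. Among other mature oligodendrocyte genes, Hapln2, which encodes a link protein of the nodal matrix, had 1.59 ± 0.15 and Bcas1 0.95 ± 0.09 between the sets, and the tetraspanin gene Cd9 had -0.64 ± 0.06. Genes with exons of 6000 bases or more, which include Mbp and Mobp, had a median of 0.12 between the sets (4800 genes), and those below 2000 bases, which include Cldn11 and Mog, had -0.07 (2796 genes). The part of exon length, mitochondrial share and detected genes in the result was not tested.

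**Figure D3:**
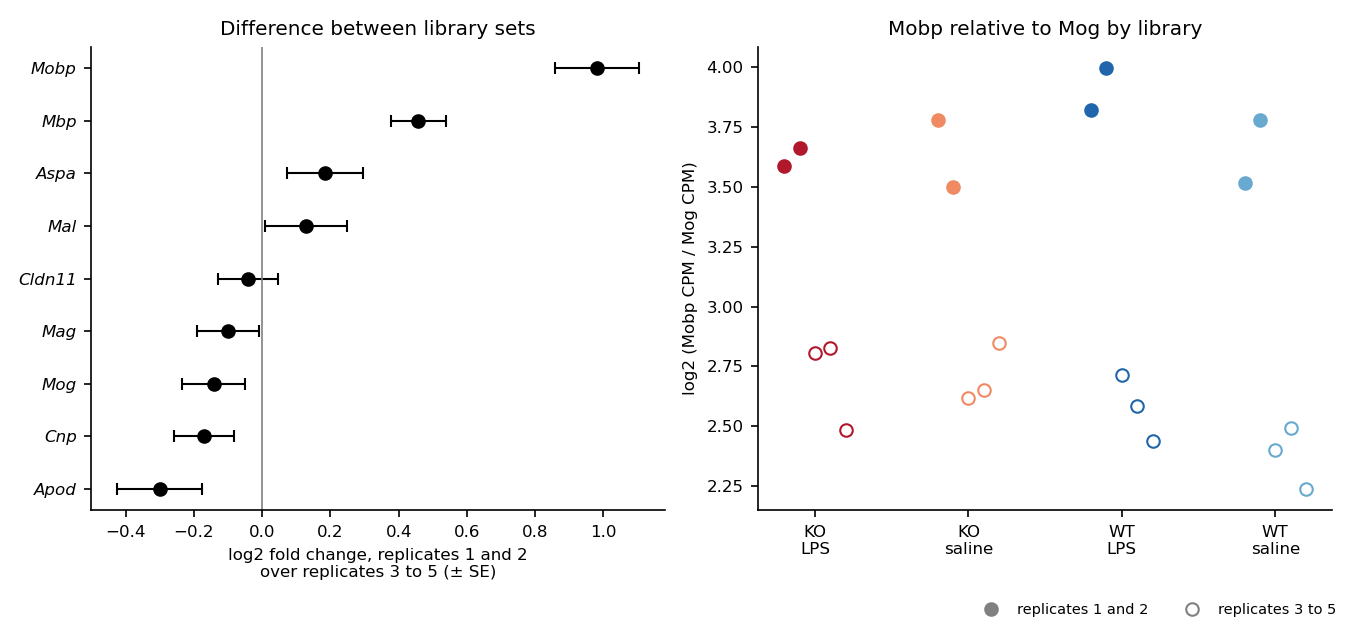
Left, log2 fold change of replicates 1 and 2 over replicates 3 to 5 (x axis, ± SE) for the 9 genes (y axis). Right, log2 ratio of Mobp to Mog CPM (y axis) in each library of the 4 groups (x axis), filled for replicates 1 and 2 and open for replicates 3 to 5; Mobp, at 0.98, lies furthest right, and the filled points lie above the open ones in every group.

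Within a set and group, the 9 genes varied together from library to library. For each of the 20 libraries, log2 CPM was taken relative to the mean of its own group and set. These correlations are a description, since genes of 1 library share its tissue piece, depth and scaling. Over the 36 pairs, Pearson's r ran from 0.135 (Aspa with Apod) to 0.949 (Mbp with Mag), with a median of 0.712. Without Apod and Aspa, the 21 pairs had 0.618 to 0.949 and a median of 0.848. With the mean of the other 8 genes, Mobp had r = 0.926 (Spearman's rho 0.89, and r = 0.878 without the 2 libraries farthest from the median), Cldn11 0.921 (0.893 and 0.88), Aspa 0.575 (0.532 and 0.382) and Apod 0.471 (0.389 and 0.451).

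Whole libraries stood high or low. KO LPS replicate 4, KO saline replicate 5 and WT LPS replicate 4 lay above the mean of their group and set for all 9 genes. KO LPS replicate 3, KO saline replicate 3 and WT LPS replicate 3 lay below it for all 9. WT LPS replicate 2 lay above it for 8 genes, all but Apod, by up to 0.46 for Mal, and WT LPS replicate 1 is its mirror image because a set of 2 libraries deviates equally from its mean.

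Among the 10 genes outside the 9 that were most like their mean, out of 16419, were Tmem88b (r = 0.918), Fa2h (0.902), Myrf (0.901), Sept4 (0.892), Pde8a (0.889), Dusp16 (0.884), Ppp1r14a (0.86) and Tspan2 (0.859). Their Spearman's rho was 0.848 (Tspan2) to 0.95 (Tmem88b), and without the 2 farthest libraries r was 0.767 (Ppp1r14a) to 0.898 (Tmem88b). Fa2h encodes the hydroxylase that makes the 2-hydroxylated galactolipids of myelin and Myrf the transcription factor that drives myelin gene expression. Of these 8 genes, 6 belong to the lists of mature oligodendrocyte, lipid or transcription factor genes, and Pde8a and Dusp16 to none of them. Which genes were among the 10 depended on the centring. Centred on group means alone, or not centred within groups, Tmem88b, Dusp16 and Ppp1r14a left the 10, and Arsg and Prr18 entered. Fa2h, Myrf, Sept4, Pde8a and Tspan2 stayed. As whole lists, the mean of 36 other mature oligodendrocyte genes had r = 0.969 with the 9, 11 transcription factors 0.711 and 15 lipid enzymes 0.658. Committed precursors had 0.141, precursors 0.023, thalamus markers 0.095, meningeal fibroblast markers -0.038 and astrocyte markers 0.31.

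**Figure D4:**
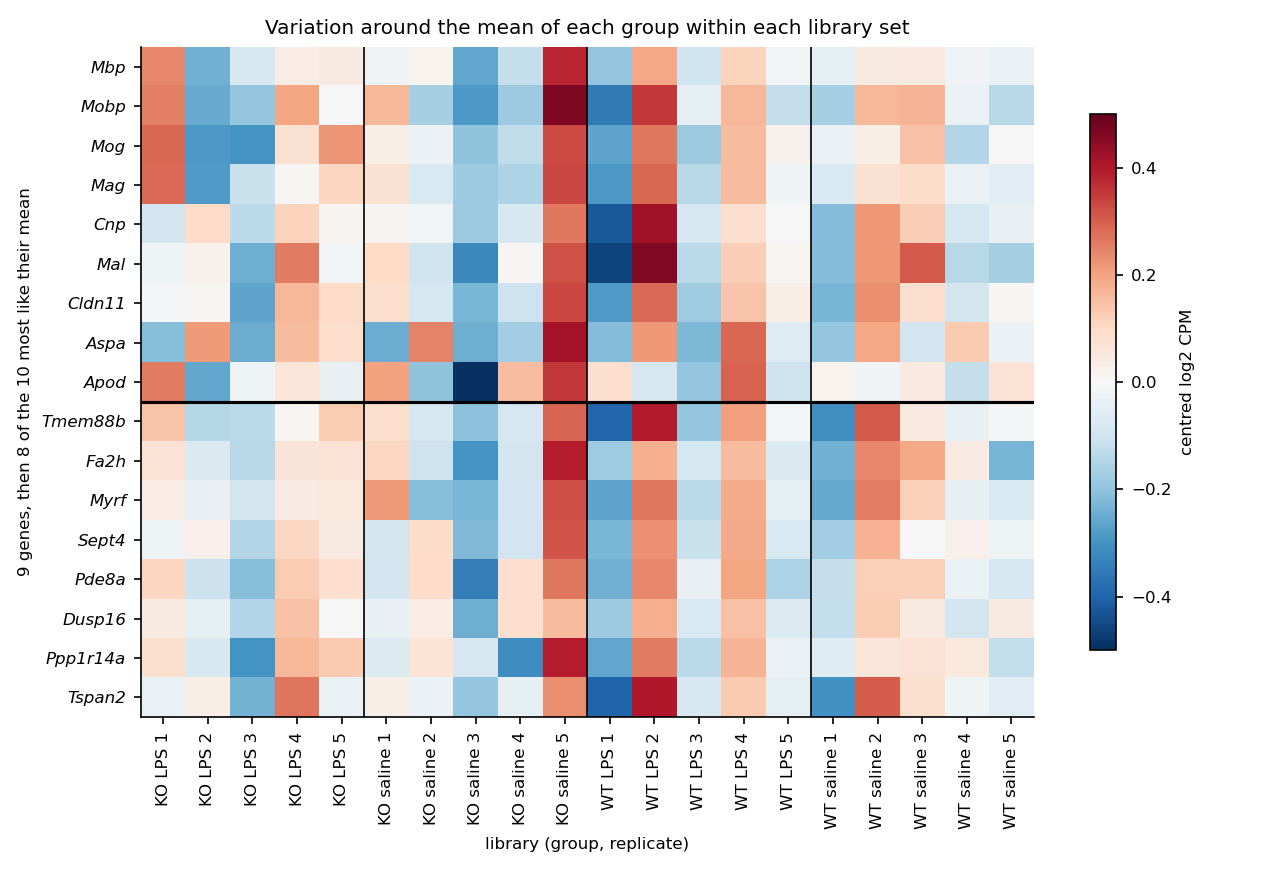
Log2 CPM of the 9 genes (above the line) and of 8 of the 10 genes most like their mean (below it), relative to the mean of its group and library set (colour, red above and blue below), in each of the 20 libraries (columns). KO saline replicate 5 is red down the whole column, and replicates 1 and 2 of a group are mirror images because they are the only libraries of their set.

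Of the other genes of the lineage, none was called by edgeR between KO and WT in the fit without further terms. Of 36 other mature oligodendrocyte genes, 27 lay below 0 in KO over WT (median -0.12), as did 13 of 15 myelin lipid enzymes (median -0.09) and 8 of 11 transcription factors (median -0.08), while 46.2% of all genes lay above 0. Opalin, a sialylated membrane protein of mature oligodendrocytes, had 8.69 to 18 CPM in KO and 15.5 to 35.5 CPM in WT, with -0.59 ± 0.15 (edgeR adjusted p = 0.112, and 0.0264 with the library set as a term), an estimate further from 0 than that of any of the 9. Hapln2 was at -0.45 ± 0.39, Adamts4 at -0.37 ± 0.16 and Tspan2 at -0.35 ± 0.10, further from 0 than most of the 9. On the other side of 0, Klk6 was at 0.61 ± 0.35, the furthest from 0 of the 36, and Enpp2 at 0.26 ± 0.10. Ugt8a, which makes galactosylceramide, had -0.31 ± 0.11, and Padi2, which citrullinates myelin basic protein, had 0.43 ± 0.14, both with edgeR adjusted p above the threshold (0.656 and 0.492).

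Among the transcription factors, Tcf7l2 had -0.31 ± 0.22 and Zfp488 -0.25 ± 0.13 in KO over WT. Sox10, a transcription factor of the whole lineage, had -0.22 ± 0.08 (edgeR adjusted p = 0.728), Myrf -0.12 ± 0.11, Olig1 -0.08 ± 0.07 and Olig2 -0.04 ± 0.08. Committed precursors had 4 of 6 tested genes below 0 (median -0.01), with Gpr17 at -0.01 ± 0.09 and Enpp6 at -0.09 ± 0.21. Precursors had 3 of 10 below 0 (median 0.02), with Pdgfra, the growth factor receptor that marks them, at 48.1 ± 7.35 CPM in KO and 47.4 ± 6.22 CPM in WT (n = 10 each). Cspg4, another precursor marker, had 0.05 ± 0.10. Genes of the node and paranode, the axonal partners of myelin, had 4 of 10 below 0 (median 0.02).

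**Figure D5:**
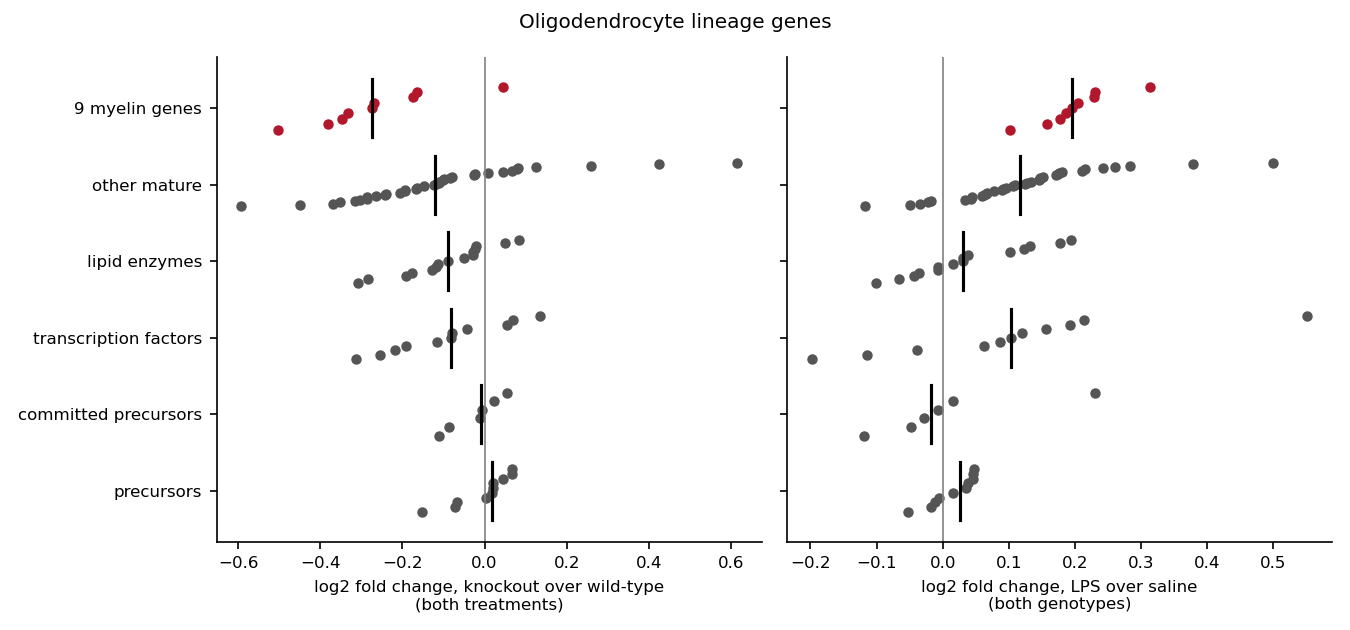
Log2 fold change (x axis) of each gene in 6 lists of the oligodendrocyte lineage (rows, 1 point per gene, bar at the median), for KO over WT on the left and LPS over saline on the right. The 9 myelin genes have medians of -0.28 and 0.20, and the medians of both precursor lists lie near 0 in both comparisons.

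None of the listed endothelial, microglial, mural, meningeal, neuronal, astrocyte or thalamus markers was called between the genotypes (smallest edgeR adjusted p = 0.412, in the endothelial list). In KO over WT, 7 of 8 endothelial markers lay below 0 (median -0.18), 7 of 8 microglial markers (median -0.08) and 5 of 9 mural cell markers (median -0.12), while 10 of 12 meningeal fibroblast markers (median 0.17) and 9 of 10 neuronal markers (median 0.09) lay above 0. Summed endothelial markers had 159 to 260 CPM in KO LPS, 144 to 217 CPM in KO saline, 221 to 271 CPM in WT LPS and 160 to 273 CPM in WT saline. Of the 9 hippocampus markers, 1 was called, C1ql2, which was lower in KO (edgeR adjusted p = 0.00645) and was picked out after its value was seen. Thalamus markers had a median of 0.00 and astrocyte markers of 0.01. The part of these cells in the myelin result was not tested. Without the 3 thalamus-high libraries, the median of the 9 genes in KO over WT was -0.32, with none called (smallest edgeR adjusted p = 0.188).

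The genes that differed most between genotypes were not those that are most abundant. On the log2 scale, Mbp exceeded Mal by 3.62 in KO and by 3.30 in WT, a difference of 0.32 that was 0.28 within replicates 1 and 2 and 0.35 within replicates 3 to 5. Cnp exceeded Mal by 0.92 in KO and by 0.69 in WT (difference 0.23). Mal and Cldn11 differed from each other by 0.38 in KO and 0.48 in WT. These ratios are given without a test, since the genes were picked for how they differed.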

How the data were processed

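The deposited values were raw counts per gene for 20 libraries, which the authors had neither normalized nor filtered; per the submitters' processing notes they used Trimmomatic 0.38, FastQC, MultiQC and featureCounts 1.6.0 with mm10. The aligner and strand setting are not given in the sources used here. Per the labels, libraries were made from total RNA with NEBNext Ultra reagents. All identifiers (100%) matched GENCODE M21 on GRCm38, which gave symbols, positions and exon lengths. No 2 libraries were identical.

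Counts were tested in edgeR 4.0.16 (R 4.3.3) with TMM factors, the default expression filter by group, a robust quasi-likelihood fit of 4 group means over all 20 libraries and Benjamini-Hochberg adjustment over 16419 genes, at a threshold of 0.05. Levels are CPM with TMM factors; log2 CPM for correlations used a prior count of 2. The fit was tested on simulated counts, which held no difference between library sets, unlike these data. The 9 genes and the other lists were chosen with earlier results of these data known. Genes named beside the 9 were a set of lineage markers, the lineage genes nearest the threshold and the 10 with the most similar pattern; some of these genes are not reported here.

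Same-numbered libraries correlated at 0.264 to 0.854 (30 pairs, median 0.462), other numbers of the same library set at 0.191 to 0.672 (median 0.45) and pairs across sets at -0.705 to -0.149. Centred within sets, same numbers had -0.265 to 0.63 (median 0.0156), and other numbers of the set -0.63 to 0.265 (median -0.00975). The replicate numbers thus carry the library set, and the block and set term were alternatives. Further alternatives were DESeq2 1.42.0, limma-voom (3.58.1) with quality weights, DESeq2 size factors, no filter, and a stricter filter (1 CPM in 5 libraries). Fits were also run on each set alone, without the 3 thalamus-high libraries, and without each library. Depth was 16652992 to 27230202 counts per library, and errors are those of the spread between libraries. The 250 promoter bases come from RefSeq, GRCm38.p6.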

Additional observations from a re-analysis of the deposited data

Results flagged for a closer look

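In 5 of 36 groups of 5 libraries, a single library lay far from the other 4, its gap to the nearest being over 0.71 of the group's range. Chance alone gives this in about 1 of 20 independent groups, and these groups are not independent, since the 9 genes share libraries and vary together; 3 of the 5 are the same library. KO saline replicate 5 was the highest of its group for Mog (48.4 CPM, gap 0.853 of the range), Cnp (303 CPM, 0.797) and Mag (142 CPM, 0.723). WT LPS replicate 2 was the highest of its group for Mal, with 321 CPM (0.805). KO LPS replicate 2 was the lowest of its group for Apod, with 85.5 CPM (0.73).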

How the results depend on the processing

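Called genes are given in the order LPS over saline in KO, LPS over saline in WT, KO over WT after LPS, KO over WT after saline, LPS over both genotypes and KO over both treatments; as reported these were 1, 0, 24, 28, 7 and 72 of all genes. DESeq2 called 7, 2, 53, 48, 19 and 122, limma-voom 2, 3, 62, 370, 17 and 540, and the library set as a term 7, 3, 54, 47, 24 and 152. With the replicate block, the counts were 5, 3, 63, 59, 27 and 176. Replicates 1 and 2 alone called 4 and 3 for KO after LPS and after saline, 0 for LPS over both genotypes and 10 for KO over both treatments. Replicates 3 to 5 alone called 2 for LPS in KO, 118 and 500 for KO after LPS and after saline, and 1257 for KO over both treatments. Without the 3 thalamus-high libraries, LPS in WT and LPS over both genotypes called 1 gene each. Leaving out each library gave 0 to 2 for LPS in KO, 0 to 1 for LPS in WT and 4 to 9 for LPS over both genotypes.

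Of the 9 myelin genes, 0 were called in KO over both treatments as reported, against 2 by DESeq2, 3 by limma-voom, 1 with the replicate block, 2 with the library set as a term, 1 in replicates 3 to 5 alone and 0 to 1 with each library left out. The block changed no other call among the 9 in the comparisons of genotype and LPS. The cause of these shifts was not tested; each library set alone has fewer libraries.

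Signs that turned belonged to log2 fold changes near 0 or with wide errors. In limma-voom, KO after saline was 0.005 for Mobp and -0.057 for Aspa, the interaction 0.021 for Mal and the set difference 0.007 for Cldn11. With the replicate block, KO after saline was -0.002 for Aspa. In replicates 1 and 2 alone, LPS in KO was -0.097 for Mal, -0.194 for Aspa and 0.088 for Apod, the interaction 0.069 for Mbp, -0.027 for Mog and 0.132 for Mag, and KO over both treatments -0.079 for Apod. In replicates 3 to 5 alone, KO after LPS was 0.004 for Apod, KO after saline 0.025 for Mobp and -0.041 for Aspa, and the interaction 0.048 for Mal. Without the 3 thalamus-high libraries, LPS in KO was -0.008 for Mobp, the interaction -0.014 for Mog and the set difference 0.008 for Cldn11.

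With each library left out, LPS in KO ranged from -0.008 to 0.368 for Mobp, -0.041 to 0.104 for Cnp, -0.045 to 0.106 for Mal, -0.066 to 0.15 for Aspa and -0.147 to 0.121 for Apod. KO after saline ranged from -0.402 to 0.035 for Mobp and -0.12 to 0.098 for Aspa, and KO over both treatments from -0.032 to 0.102 for Apod. The interaction ranged from -0.18 to 0.108 for Mbp, -0.501 to 0.149 for Mobp, -0.027 to 0.171 for Mog and -0.105 to 0.101 for Mag. The set difference ranged from -0.004 to 0.181 for Mal and -0.111 to 0.003 for Cldn11. Of 2133 values for single genes and settings, 2047 kept both direction and side of the threshold. Each of the 9 genes had at least 110 reads in every library. Each group had 5 libraries, and the library set splits every group.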
